A study of Mus musculus with 2 samples.

Results

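The genes described here are the 8 sarcomeric myosin heavy chain genes Myh6, Myh7, Myh7b, Myh1, Myh2, Myh3, Myh4 and Myh8 and the long noncoding RNA gene Mhrt, chosen by symbol. All 9 symbols were found among the 55536 annotated genes of the tables, with 36 annotated transcripts between them. The samples were 2 libraries of ribosome-depleted total RNA, each made from 300 ng of RNA from the heart of a male B6CASTF1/J mouse aged 2 months, with no treatment named. The strain is an F1 cross between B6 and CAST, and both animals came from The Jackson Laboratory. The labels number the males separately but give them 1 donor entry, so the count of 2 animals was inferred from the labels. The libraries held 39177981 and 44544839 expected counts. With 1 group of 2 mice there was no contrast to test, so levels are given per mouse (replicate 1, then replicate 2) with the SD, and no p-value is given.

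Sarcomeric myosin heavy chains are the motor proteins of the thick filament of striated muscle, and each gene encodes a motor with its own speed of contraction. In the mouse heart the fast alpha chain, from Myh6, replaces the slow beta chain, from Myh7, in the ventricle around birth, and the pair lies head to tail on chromosome 14 with Mhrt between them, transcribed from the opposite strand. Myh7b encodes an ancient, slow-type chain, and the other 5 genes belong to a cluster on chromosome 11 that serves skeletal muscle, with Myh3 and Myh8 known as the embryonic and perinatal chains and Myh2, Myh1 and Myh4 as the fast adult ones.

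The 3 genes expressed in heart each carry a microRNA in an intron, and these are shown because they link the genes by sequence. The capitals mark the seed (bases 2 to 8), and the sequences and positions are those of RefSeq for GRCm38.p6. Mir208a lies in intron 29 of Myh6-201, at chr14:54949060-54949142 on the minus strand. Mir208b lies in intron 31 of Myh7-201, at chr14:54975700-54975776 on the minus strand. Mir499 lies in intron 19 of Myh7b-201, at chr2:155622880-155622958 on the plus strand.
mmu-miR-208a-3p: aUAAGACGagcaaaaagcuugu
mmu-miR-208b-3p: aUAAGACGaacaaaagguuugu
mmu-miR-499-5p: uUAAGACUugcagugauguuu
The microRNAs of Myh6 and Myh7 share the seed UAAGACG, and that of Myh7b has UAAGACU. Their hairpins, of 83, 77 and 79 bases, were listed at 0 in both mice. They are shorter than the 100-base read positions that the gene table's effective lengths imply, so these libraries say nothing about the level of the microRNAs.

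Myh6 (ENSMUSG00000040752.16; mm10, chr14:54941921-54966927, minus strand, 39 exons in Myh6-201) dominated the group. Its level was 7294 and 8105 TPM (a level corrected for length and library size), a mean of 7699 ± 573 (SD, n = 2 mice), from 835905 and 1039313 expected counts. It was the second nuclear protein-coding gene of 22015 by mean TPM. The genes next to it in level were Myl2, the ventricular regulatory light chain, at 8071 ± 621 TPM and Mb, which encodes myoglobin, at 7679 ± 148 TPM, and their means in the gene table differed from that of Myh6 by less than its SD over the mice. The order among them was not fixed: in replicate 1 Mb, at 7575 TPM, lay above Myh6, and in the second transcript table Myl2 stood at 16519 and 18262 TPM, against 6812 and 7528 for Myh6. Of the summed TPM of the 9 genes, Myh6 held 90.4% and 90.03%, a mean of 90.2 ± 0.290%.

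Myh7 (ENSMUSG00000053093.16; chr14:54970684-54994626, minus strand, 41 exons in Myh7-201) came next, at 728 and 858 TPM, a mean of 793 ± 92.4, from 35075 and 44888 expected counts. It ranked 53 among nuclear protein-coding genes, between Ech1, a mitochondrial enzyme of fatty acid oxidation, at 809 ± 64.2 TPM and Ndufa3, a subunit of complex I, at 771 ± 57.6 TPM. That rank was taken in gene-table TPM and rests on a level that changed with the measure. Myh7 stood at 1457 and 1721 TPM in the second transcript table. Its full-length coding transcripts stood at 139 and 153 TPM in the first transcript table. Myh7 held 9.02% and 9.54% of the summed TPM of the 9 genes in the gene table. That share was 17.5% and 18.5% in the second transcript table, 4.02% and 4.13% in expected counts, and 3.12% and 3.15% among full-length coding transcripts of the first transcript table. The ranges of Myh6 and Myh7 did not come near each other.

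Mhrt (ENSMUSG00000097652.2; chr14:54968678-54974349, plus strand, annotated as antisense) was the third in level, at 28.9 and 27.9 TPM, a mean of 28.4 ± 0.728, from 585 and 648 expected counts. By mean TPM it stood at rank 3 of 2959 genes annotated as antisense, of which 89 reached 1 TPM in both mice. Myh7 exceeded Mhrt by 25.2-fold and 30.8-fold in gene-table TPM and by 59.96-fold and 69.3-fold in expected counts. In the second transcript table the ratio was 32.7 and 42.7. It was not computed for the full-length coding transcripts of Myh7, which stood at only 139 and 153 TPM in the first transcript table.

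Myh7b (ENSMUSG00000074652.3; chr2:155611212-155634307, plus strand, 42 exons in Myh7b-201) stood at 14.1 and 10.95 TPM, a mean of 12.5 ± 2.19, from 1542 and 1409 expected counts. It ranked 4194 among nuclear protein-coding genes, between Fbxo21, a ubiquitin ligase subunit, at 12.5 ± 0.806 TPM and Shc1, a signalling adaptor, at 12.5 ± 0.325 TPM. Myh7 exceeded Myh7b by 51.8-fold and 78.4-fold in gene-table TPM. The ratio was 109 and 149 in the second transcript table, 22.7 and 31.9 in expected counts, and 18.3 and 24.9 among full-length coding transcripts of the first transcript table. Mhrt lay above Myh7b in both mice, and their ranges did not overlap.

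The 5 genes of the chromosome 11 cluster, which lie within 230 kb from the start of Myh3 to the end of Myh8, were at or near 0. Myh2 and Myh3 had 0 expected counts in both mice. Replicate 2 had 1.51 expected counts of Myh1, 1.49 of Myh8 and 1 of Myh4, and replicate 1 had 0 of each. A count of 0 allows up to 3 counts, which where these genes had 0 corresponds to between 0.0146 and 0.0239 TPM, for counting error only. The quantifier's own intervals for them reached at most 0.196 TPM. The second transcript table gave each of them between 4.62 and 19.0 estimated counts, which is between 0.0226 and 0.246 TPM. No member of the cluster passed 1 TPM in any table, and their order among themselves cannot be read at this depth. Of the 8 protein-coding members 3 reached 1 TPM in both mice, beside 49.8% of all nuclear protein-coding genes (10957 of 22015), and Mhrt, which is noncoding, reached it as well.

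**Figure D1:**
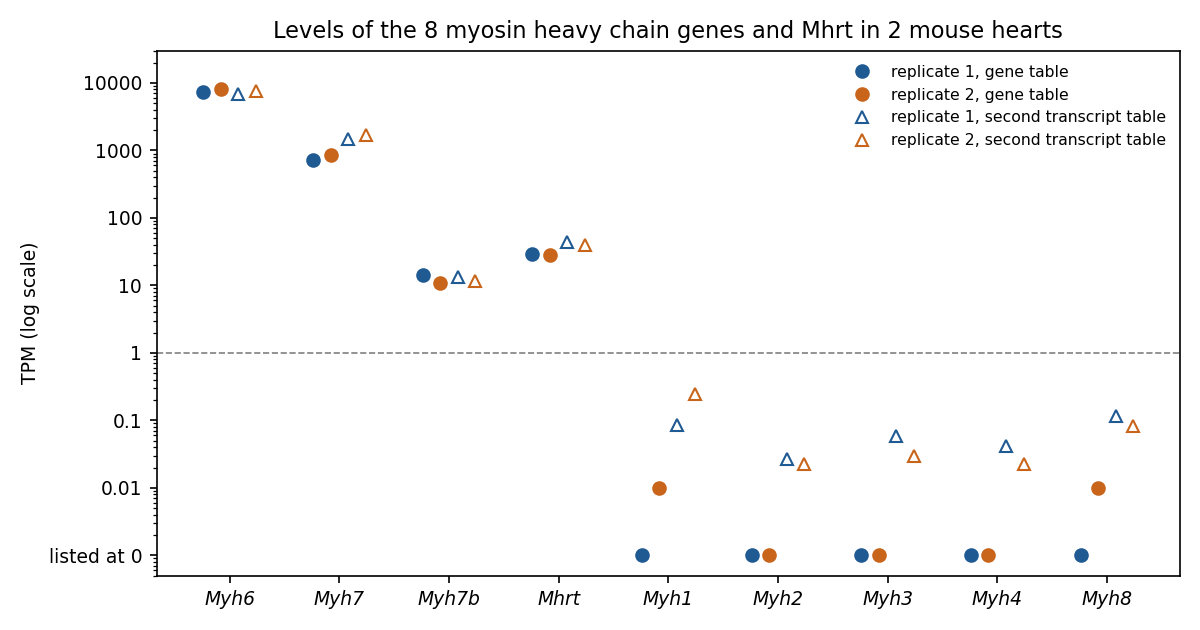
TPM on a log scale (vertical) of the 9 genes in replicate 1 (blue) and replicate 2 (orange), from the gene table (filled circles) and the second transcript table (open triangles); the dashed line is 1 TPM and values of 0 are drawn at the bottom as listed at 0. Myh6, Myh7, Mhrt and Myh7b lie above 1 TPM in both mice and both tables, and the 5 genes of the chromosome 11 cluster lie below 1 TPM throughout.

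Markers of skeletal muscle stood beside this cluster as follows. Of 8 defining fast skeletal markers, 1 reached 1 TPM in both mice, and their summed level was 2.76 and 3.63 TPM. The highest of these 8 were Mylpf, the fast regulatory light chain, at 1.04 ± 0.438 TPM and Tnni2, the fast troponin I, at 1.03 TPM in both mice, and Myf6, a myogenic factor, was at 0. Over the wider skeletal list 4 of 12 genes reached 1 TPM, the highest being Des at 568 ± 21.3 TPM and Acta1 at 98.8 ± 15.7 TPM, which heart muscle also expresses. Myl1, the fast skeletal essential light chain, is in that wider list and not among the 8 defining markers, and stood at 11.4 and 8.64 TPM from 253.6 and 214 expected counts. Of 3 slow skeletal markers 2 did so, Casq2, which is also the cardiac calsequestrin, at 311 ± 11.6 TPM and Tnnt1 at 6.50 ± 0.735 TPM.

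Markers of both chambers were present in both hearts. All 5 atrial markers other than Myh6 reached 1 TPM in both mice, with Nppa at 698 ± 0.643 TPM, Myl4 at 239 ± 2.56 and Myl7 at 206 ± 7.14. All 5 ventricular markers did so as well, with Myl2 and Myl3 far above the others, Hopx at 140.4 ± 10.03 TPM and Irx4 at 12.1 ± 0.332 TPM. Of 7 conduction system markers 5 did so, the highest being Irx3 at 12.1 ± 0.219 TPM. In a bulk tissue fewer cells of a type and less RNA per cell cannot be told apart, and the chamber of origin of the Myh6 and Myh7 reads was not tested.

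Myh6 and Myh7 are near copies, so part of their reads fit both genes. Their coding sequences agreed at 5322 of 5800 aligned bases (91.8%). Against Myh7b the identity was 72.9% for Myh6 and 73.1% for Myh7. Within the chromosome 11 cluster it ranged from 80.7% between Myh1 and Myh3 to 91.1% between Myh1 and Myh2. The longest run shared by Myh6 and Myh7 is shown because no read of the annotated sequence inside it can tell the genes apart. Only annotated mm10 transcripts were compared, so CAST variants of these F1 animals were not considered. It is 245 bases long and spans exons 30 and 31 of Myh6-201 (chr14:54948327-54948725, minus strand) and exons 32 and 33 of Myh7-201 (chr14:54974947-54975347, minus strand), both in mm10.
Run identical in Myh6 and Myh7: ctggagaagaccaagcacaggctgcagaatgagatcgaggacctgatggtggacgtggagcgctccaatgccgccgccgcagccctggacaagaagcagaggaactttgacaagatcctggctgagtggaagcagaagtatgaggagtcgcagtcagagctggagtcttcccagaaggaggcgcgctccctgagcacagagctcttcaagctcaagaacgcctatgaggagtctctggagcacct
The least alike aligned window of 60 coding bases holds 33 identical bases and is shown as the opposite case, with capitals at the bases that differ. It lies in exons 24 and 25 of Myh6-201 and in exons 26 and 27 of Myh7-201.
Myh6: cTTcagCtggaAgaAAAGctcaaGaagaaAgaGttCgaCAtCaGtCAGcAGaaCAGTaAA
Myh7: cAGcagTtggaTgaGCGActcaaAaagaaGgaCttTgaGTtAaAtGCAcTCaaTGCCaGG
Of the 6014 words of 100 bases in Myh6-201, 687 (11.4%) occurred in Myh7, and the same 687 words are 11.4% of the 6036 words of Myh7-201. No 100-base word of Myh7b-201 or Myh3-201 occurred in another member. The first quantifier reported the same posterior SD for the counts of both genes, 86.1 in replicate 1 and 92.2 in replicate 2.

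**Figure D2:**
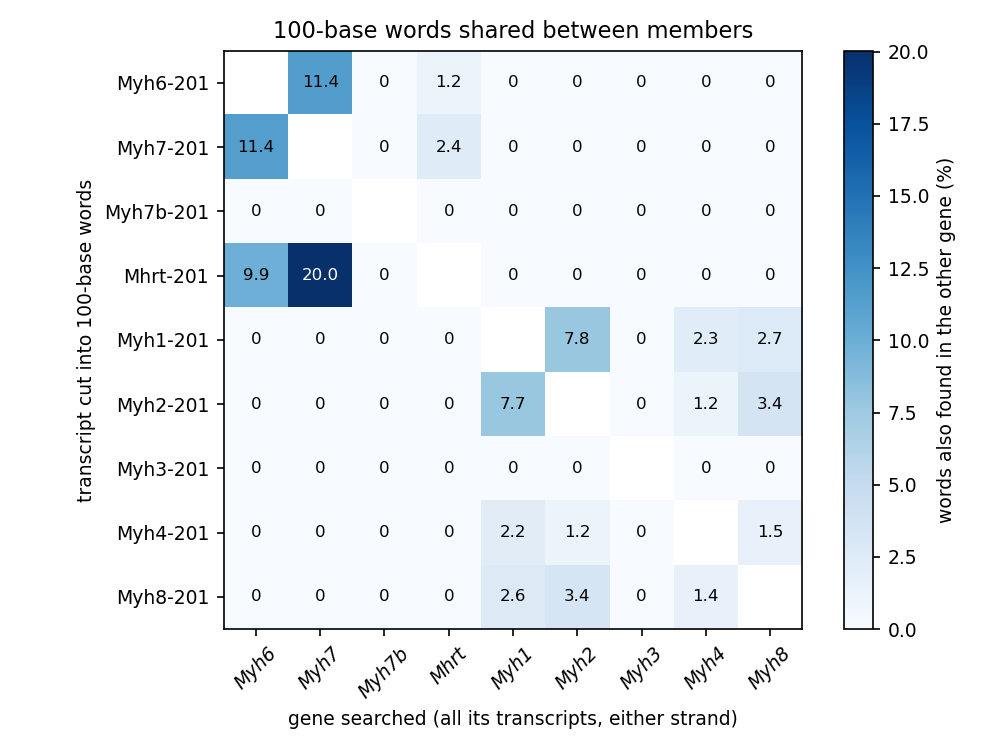
Share (percent) of the 100-base words of the first transcript of each gene (rows) that also occur, on either strand, in any transcript of another member (columns); darker blue is a larger share and the diagonal is left blank. The highest shares are Mhrt-201 with Myh7, at 20.0%, and Myh6-201 with Myh7, at 11.4%.

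The gene-level TPM of Myh7 rested mostly on 1 short transcript. Myh7-206, annotated as a retained intron, is 595 bases long and has 3 exons that meet exons 36 to 38 of Myh7-201, with 572 of its bases inside exons of Myh7-201 and 23 outside. In the first transcript table it held 588 and 705 TPM, which was 80.8% and 82.1% of the TPM of Myh7. The full-length coding transcript Myh7-201 held 137 and 153 TPM, or 18.9% and 17.8%. In expected counts the order was reversed, with 25718 and 32398 on Myh7-201 against 9042 and 12295 on Myh7-206. The start of Myh7-206 is shown because its first 23 bases, in capitals, are the part that Myh7-201 lacks (chr14:54973449-54973528, minus strand, mm10).
Start of Myh7-206: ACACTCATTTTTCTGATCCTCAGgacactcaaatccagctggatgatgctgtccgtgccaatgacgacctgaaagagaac
Of its 496 words of 100 bases, 21 occurred in no other Myh7 transcript and 130 (26.2%) occurred in Myh6. Reads per position on Myh7-206 were 18.2 and 24.8, which is 4.23 and 4.60 times those on the full-length Myh7 transcripts and 13.7% and 15.0% of those on the full-length Myh6 transcripts. Whether reads of Myh6 were assigned to Myh7-206 was not tested. Among nuclear protein-coding genes at 1 TPM or more in both mice, a retained intron was the transcript highest in TPM in both mice and both transcript tables for 0.703% (77 of 10957). Among those at 100 TPM or more the share was 1.86% (10 of 537), Myh7 included.

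The ratio of Myh6 to Myh7 changed with the measure. In gene-table TPM it was 10.02 and 9.44, a mean of 9.73 ± 0.411 (SD, n = 2 mice). In the second transcript table it was 4.67 and 4.37, and in raw expected counts, which ignore gene length, 23.8 and 23.2. With only the full-length coding transcripts, that is coding transcripts of at least 5000 bases, it was 31.01 and 30.7 in the first transcript table and 26.2 and 25.8 in the second. That restriction was chosen after the transcript shares had been seen. The spread between mice was at most 0.480 (SD) under each of these measures, far below the distance between measures.

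**Figure D3:**
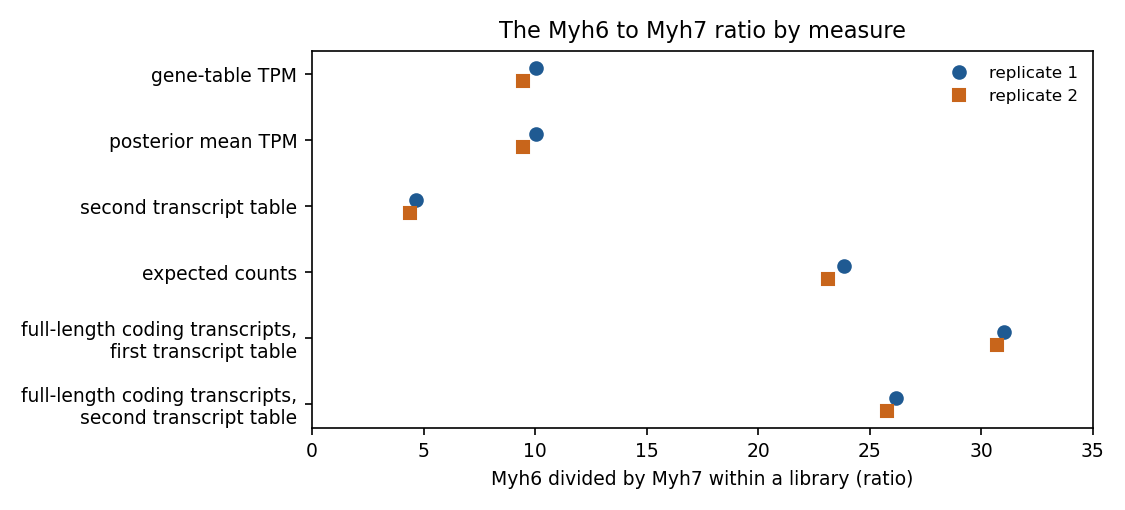
The ratio of Myh6 to Myh7 within a library (horizontal, linear from 0) under 6 measures (rows), in replicate 1 (blue circles) and replicate 2 (orange squares). The mice lie close together in each row, and the rows run from a mean of 4.52 in the second transcript table to 30.9 with full-length coding transcripts in the first.

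The second quantifier put the same short transcript even higher. It gave Myh7-206 1285 and 1529 TPM, 88.1% and 88.8% of Myh7, and Myh7-201 154 and 171 TPM. Its effective length for Myh7-206 was 269 and 270 bases, against 496 in the first table, while its estimated counts on the transcript were 11165 and 15054. After both tables were rescaled to nuclear protein-coding genes, Myh7 stood 1.54 and 1.56 times higher in the second table. Myh6 stood at 0.719 and 0.724 times, Myh7b at 0.734 and 0.821 times and Mhrt at 1.19 and 1.13 times. Of these 4 genes 1, Myh7, passed 1.5-fold in both mice, beside 4.68% of nuclear protein-coding genes at 1 TPM or more (513 of 10957).

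In Myh6 4 transcripts each held 5% or more of the TPM. The full-length Myh6-201 and Myh6-205 held 42.0% and 44.2%, and 17.1% and 13.8%, of its TPM in the first transcript table. The short coding transcript Myh6-207, of 542 bases at the 3' end of the gene, held 28.1% and 28.8%, and Myh6-202, of 376 bases at the 5' end, held 10.1% and 10.6%. Myh6-207 has 3 bases outside the exons of Myh6-201, and its reads per position were 0.476 and 0.496 times those of the full-length transcripts. In counts Myh6-201 and Myh6-205 together held nearly all reads, with 68.3% and 73.0% on the first and 27.3% and 22.4% on the second. The second transcript table gave 75.6% and 75.2%, and 22.7% and 23.1%. In both mice the TPM of Myh6-201, Myh6-205 and Myh6-207 lay outside the first quantifier's own interval, and that of Myh6-202 lay inside it. Myh6-201 stood at 3061 and 3586 TPM, against intervals of 2761 to 2894 and 3222 to 3376. The gene-level TPM of Myh6, 7294 and 8105, also lay above its intervals, which ended at 7201 and 8017. That of Myh7, 727.75 and 858.41, lay just above intervals that ended at 727.66 and 857.70. The full-length coding transcripts of Myh6 summed to 4507 ± 282 TPM, against 146 ± 10.1 for Myh7 and 6.87 ± 1.02 for Myh7b.

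Myh7b was divided between Myh7b-201, at 54.0% and 56.2% of its TPM, the retained intron Myh7b-203, at 38.4% and 33.9%, and Myh7b-202, at 7.54% and 9.95%. Myh7b-203 is 674 bases long and lies at the 3' end of the gene. It held 96.2 and 75.1 expected counts, 6.24% and 5.33% of those of Myh7b. The second table gave Myh7b-201 68.6% and 64.2% of the TPM, and the same transcript was the highest in both tables and both mice.

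**Figure D4:**
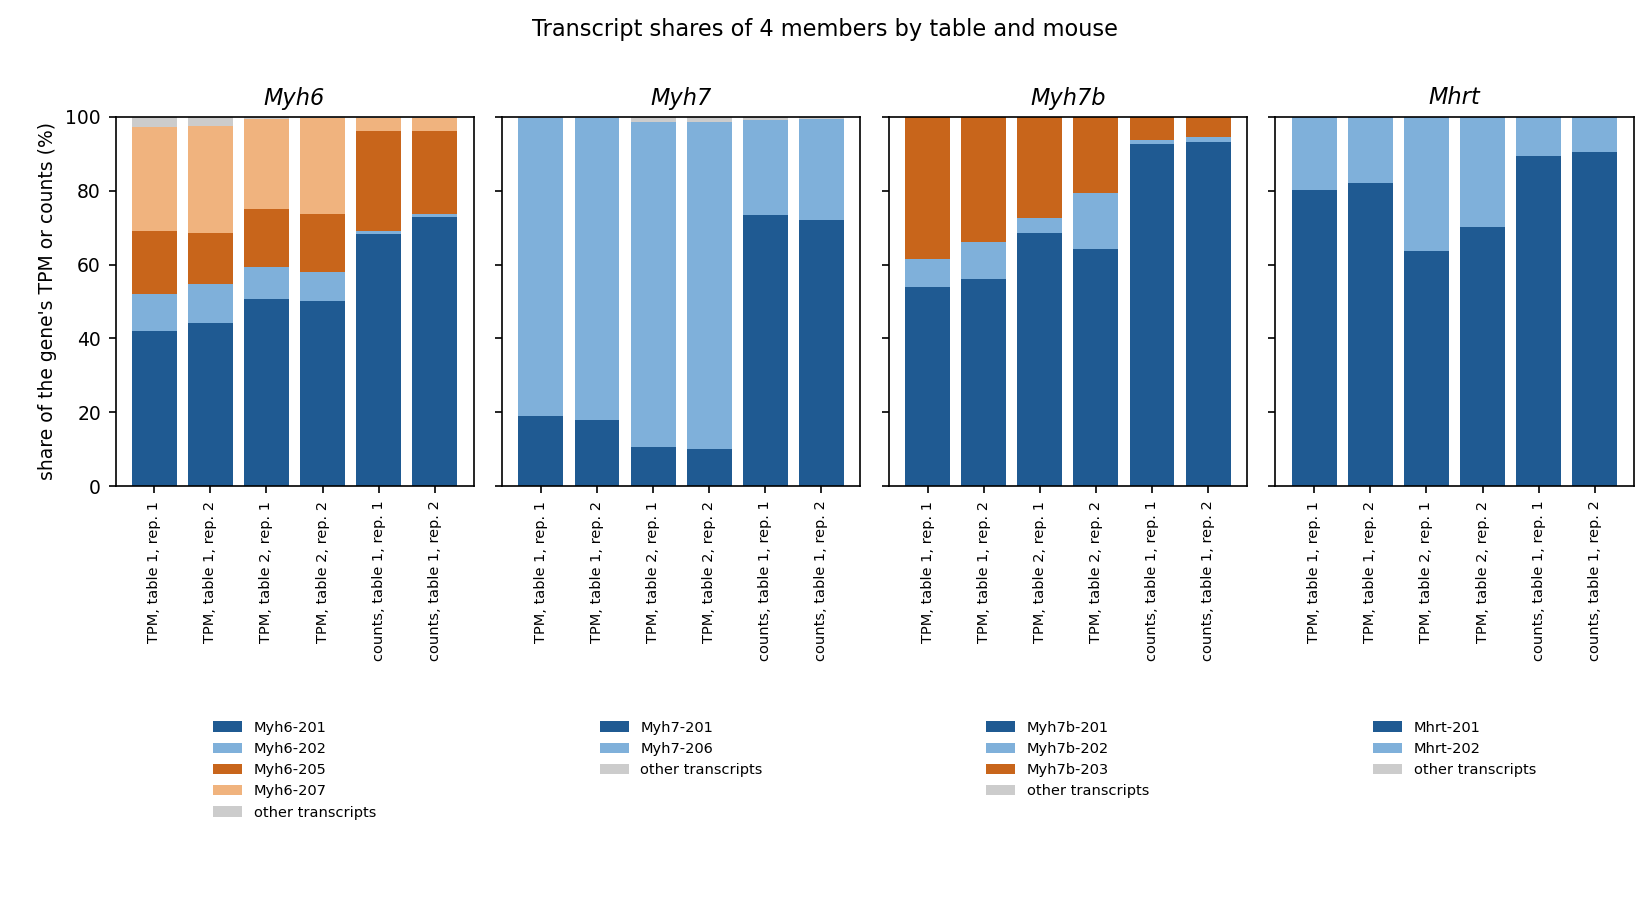
Stacked bars of the share (percent, from 0 to 100) of each transcript in its gene, for Myh6, Myh7, Myh7b and Mhrt; in each panel the bars give TPM shares in the first transcript table, TPM shares in the second, and count shares in the first, each for replicate 1 and replicate 2. Myh7-206 holds at least 80.8% of Myh7 in the 4 TPM bars and at most 27.4% in the 2 count bars.

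Mhrt begins 1751 bases from the 5' end of Myh6 and runs into Myh7 on the opposite strand, with 3666 bases of the gene inside Myh7. Of the 828 bases of Mhrt-201, 463 lie opposite exons of Myh7-201, and Mhrt-202, of 447 bases, has none there. Mhrt-201 held 523 and 587 expected counts, 80.1% and 82.1% of the TPM of Mhrt, and Mhrt-202 held 62 and 61 counts. The longest run of Mhrt-201 that is complementary to Myh7 is shown because RNA of either gene could give its reads if strand were ignored. It is 191 bases long, in exon 5 of Mhrt-201 (chr14:54973878-54974068, plus strand, mm10).
Run of Mhrt complementary to Myh7: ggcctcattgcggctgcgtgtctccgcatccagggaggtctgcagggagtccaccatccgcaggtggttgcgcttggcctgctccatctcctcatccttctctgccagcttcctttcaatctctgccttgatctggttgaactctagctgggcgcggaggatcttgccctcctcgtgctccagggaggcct
Of the 729 words of 100 bases in Mhrt-201, 146 (20.0%) are the reverse complement of words in Myh7 and 72 (9.88%) of words in Myh6. Both Mhrt transcripts had whole expected counts with a posterior SD of 0 in both mice. The labels name a spike-in profile for stranded libraries and do not state whether counting used strand. Mhrt-202, which has no overlap with exons of Myh7-201, stood at 5.75 and 4.98 TPM.

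**Figure D5:**
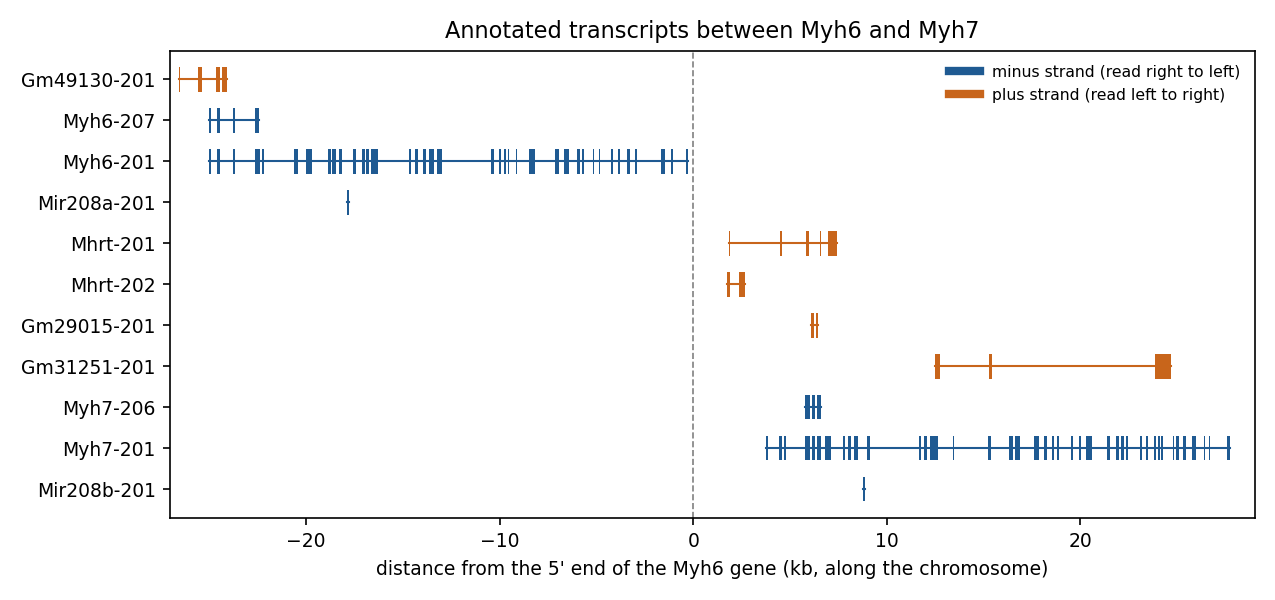
Map of annotated transcripts around Myh6 and Myh7 by distance in kb from the 5' end of the Myh6 gene (dashed line), to scale; boxes are exons, lines introns, blue the minus strand and orange the plus strand. Mhrt-201 starts in the gap between the 2 genes and its later exons lie over the 3' exons of Myh7-201, where Myh7-206 also lies.

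None of the 4 expressed genes differed 2-fold between the hearts, and under TMM scaling Myh7b differed most. On TMM-scaled expected counts, replicate 2 over replicate 1 was 0.08 (log2) for Myh6, with an exact 95% counting interval of 0.08 to 0.09. It was 0.12 for Myh7 (0.10 to 0.14) and -0.09 for Mhrt (-0.25 to 0.08), whose interval includes 0. Spike-in scaling gave 0.25 for Myh6, 0.29 for Myh7, -0.19 for Myh7b and 0.086 for Mhrt. With it the sign of Mhrt turned, and Myh7 and Myh6 differed more in size than Myh7b. Myh7b was lower in replicate 2, at -0.36 (-0.47 to -0.26), a fold of 0.777, and 93.7% of the genes compared had a smaller difference in size; for the other 3 genes that share was between 51.6% and 66.9%. The count of 0 of 4 past 2-fold stood beside 0.57% of the 12453 genes that averaged 50 or more expected counts (71 genes). Each mouse had 1 library, so a difference between mice has no replicate check.

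The partners of the heavy chains in the thick filament were detected in large part. Of 17 such genes 13 reached 1 TPM in both mice, and the list's median level was 206 ± 7.14 TPM, beside 8.68 ± 0.205 TPM for all detected nuclear protein-coding genes. The highest were Myl2, Myl3, the ventricular essential light chain, at 4136 ± 187 TPM, Ttn, the giant spring protein titin, at 1209.8 ± 36.4, and Mybpc3, cardiac myosin-binding protein C, at 525 ± 26.2. Mybph, a skeletal relative of the last, was listed at 0 in both mice. The full-length Myh6 transcripts, at 4507 ± 282 TPM, lay above Myl3 in the first tables, while in the second transcript table they stood at 4513 and 4951 TPM, below Myl3 at 5934 and 6365.

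Of 15 kinases, phosphatase subunits and folding or turnover factors of myosin, 14 reached 1 TPM, with a median of 81.2 ± 1.22 TPM. Among the highest were Hsp90ab1, a chaperone, at 494 ± 15.8 TPM, Ppp1cb, the catalytic subunit of myosin phosphatase, at 177 ± 4.63, and Mylk3, the cardiac myosin light chain kinase, at 169 ± 15.5. All 21 listed regulators of Myh6 and Myh7 transcription reached 1 TPM, with a median of 19.2 ± 0.841 TPM. Tead1, which binds M-CAT elements of muscle genes, was the highest at 74.2 ± 0.905 TPM, followed by Mef2a at 48.3 ± 4.51, Mef2d at 47.2 ± 3.16 and Gata4 at 38.9 ± 1.82.

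Of the 6 other class II heavy chains listed, the 4 of smooth muscle and nonmuscle cells were below Myh6 and Myh7. Myh14 stood at 34.9 and 37.03 TPM and Myh9 at 32.1 and 33.8, both nonmuscle chains. Both lay above Mhrt in the gene table, but in the second transcript table Mhrt, at 44.6 and 40.3 TPM, lay above Myh9, at 29.6 and 30.7, in both mice and above Myh14, at 42.3 and 42.1, in replicate 1. Myh10, another nonmuscle chain, stood at 7.47 and 9.92 TPM. Myh11, the smooth muscle chain, stood at 9.16 and 12.2 TPM, beside a sum of 135 and 168 TPM over 6 smooth muscle markers. Myh13, which follows Myh8 in the chromosome 11 cluster (chr11:67321658-67371586, plus strand, mm10), and Myh15 are sarcomeric chains outside the 8 genes, and neither passed 0.01 TPM in the gene table.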

How the data were processed

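RNA of 2 hearts was measured in 1 group, and the 2 libraries held 39177981 and 44544839 expected counts. The authors deposited for each library a gene table and a transcript table with expected counts and TPM, made from a transcriptome alignment, and a second transcript table with estimated counts and TPM made from reads, on mm10 with GENCODE M21, per the deposited descriptions and the file headers. The quantifiers and their versions were not given in the sources used here. Effective lengths in the first tables are 99 bases below transcript length.

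From these, levels, ratios and transcript shares were computed per mouse, with SD over 2 mice. TMM scaling came from edgeR 4.0.16 in R 4.3.3, run on rounded expected counts. Differences between mice used a prior count of 0.5, genes that averaged 50 or more expected counts, and exact Clopper-Pearson intervals at 95%, and a count of 0 was taken to allow 3 counts; without molecular identifiers both describe counting error alone. DESeq2 1.42.0 size factors, spike-in and total-count scaling, posterior mean TPM, other thresholds and leaving out each mouse were alternatives. Sequence comparisons used GENCODE M21 transcripts and Biopython 1.88. Only the functions for the difference between mice and its counting interval were tested on simulated counts. Analyses ran in Python 3.11.15.

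The members and lists were chosen with earlier results of these data known. Named were the 9 members, their transcripts that were dominant in, or held 5% or more of the TPM of, a gene in any table, up to 4 of the highest genes of each list and those at 0, the genes next in level to a member, and genes overlapping a member. Lists were thick filament partners, myosin kinases and folding factors, regulators of Myh6 and Myh7, other class II myosins, and markers of atrial, ventricular, fast, slow and other skeletal, smooth muscle and conduction cells. Acta1, Irx4 and Mybph were named under the same rule or as defining markers. Protein identity was planned, but coding bases were compared instead. Restriction to full-length coding transcripts, the share of genes led by a retained intron, detection at 3 counts and the 2-fold comparison of quantifiers in TPM as deposited were chosen after seeing the data.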

Additional observations from a re-analysis of the deposited data

How the results depend on the processing

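No paired analysis was possible because the 2 libraries form 1 group. Of 90 alternative values other than those leaving out a mouse, 34 stayed within the spread or interval of the reported value and 56 did not. Part of this tally was fixed in advance, so it does not measure stability. Rescaling by a common factor moved every level above 0. The SD of Myh2, Myh3 and Myh4 was 0, so any other value counted as moved. With 2 mice a value without 1 of them lies within the SD by construction, so the values that leave out a mouse, also 34, say nothing about stability. No direction was reversed for a member with an interval that leaves out 0. Posterior mean TPM left the levels of Myh6, Myh7, Myh7b and Mhrt within their spread, and it and a pseudocount of 1 TPM did so for their ratios and for the share of Myh6 in the summed TPM.

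With the second transcript table the level was 1589 TPM for Myh7 and 42.5 for Mhrt, the ratios were 4.52 for Myh6 to Myh7, 129 for Myh7 to Myh7b and 37.7 for Myh7 to Mhrt, Myh6 held 81.4% of the summed TPM, the share was 50.4% for Myh6-201, 88.5% for Myh7-206, 66.4% for Myh7b-201 and 67.0% for Mhrt-201, and the difference between mice was 0.087 for Myh6. In expected counts the ratios were 23.5, 27.3 and 64.6 and Myh6 held 95.7%, and the 4 transcripts held 70.6%, 26.6%, 92.8% and 89.99%. Rescaled to nuclear protein-coding genes, Myh6, Myh7, Myh7b and Mhrt stood at 19715, 2030.2, 32.1 and 72.7 TPM. With full-length coding transcripts of the first table Myh6, Myh7 and Myh7b stood at 4507, 146 and 6.87 TPM, the ratios were 30.9 and 21.6 and Myh6 held 96.7%, while those of the other transcript table gave ratios of 26.0 and 22.3 and a share of 96.1%. Counts carry no correction for length, rescaling multiplies all genes of a library by the same factor, and full-length levels leave out the other transcripts. The cause of the remaining moves was not tested.

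Between mice, spike-in scaling gave 0.25 for Myh6, 0.29 for Myh7, -0.19 for Myh7b and 0.086 for Mhrt, which turned the sign of Mhrt and moved the median gene to 0.18 from 0.01. Under that scaling Myh7, not Myh7b, differed most in size. Total-count scaling gave 0.13 for Myh6 and 0.17 for Myh7, and DESeq2 size factors gave 0.10 for Myh6. Genes past 2-fold numbered 411 at a mean count of 10 or more and 5493 with no filter, against 71, and after rescaling 0 members passed 2-fold between quantifiers, against 1 past 1.5-fold. In TPM as deposited 1 member, Myh7, passed 2-fold in both mice, an alternative chosen after seeing the data. It passed only narrowly, at 1.002 and 1.004 (log2). No share of all genes past 2-fold between quantifiers was computed, so these 2-fold counts have no background beside them. Leaving out a mouse gave ranges of 7294 to 8105 TPM for Myh6, 728 to 858 for Myh7, 10.95 to 14.1 for Myh7b and 27.9 to 28.9 for Mhrt. Words of 31 bases raised the share of Myh6-201 found in Myh7 to 32.3% and that of Myh7-206 found in Myh6 to 58.8%. Depth limits the chromosome 11 genes, which had at most 1.51 expected counts, and 2 mice limit every SD.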

Other observations

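Other RNAs were annotated opposite the myosin genes. Gm31251 (chr14:54979393-54991601, plus strand, mm10), which lies opposite Myh7 beyond Mhrt, stood at 13.1 and 10.6 TPM from 467 and 429 expected counts. By mean TPM it was number 11 of the 2959 genes annotated as antisense, where Mhrt was number 3. Of the 1149 words of 100 bases in Gm31251-201, 90 (7.83%) are the reverse complement of words in Myh7. Gm49130 (chr14:54940355-54942852, plus strand), at the 3' end of Myh6, had 12 and 8 expected counts in the gene table and 60 estimated counts in each mouse in the second transcript table. Gm29015 (chr14:54973029-54973359, plus strand), which overlaps Myh7-206 on the opposite strand, had 4 and 0 expected counts, against 9042 and 12295 on Myh7-206. On chromosome 11, Myhas, annotated opposite the fast myosin gene Myh1, was at 0 in both mice, as was Gm17428 inside Myh7.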
